A study of Mus musculus with 24 samples.

Results

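The last sampled days of 2 ways of growing mouse retinal organoids were compared: day 25 (D25) in a rotating-wall bioreactor (RWB) and day 32 (D32) of intact organoids in static suspension culture (SSCi). The groups were defined by the sample titles, with 3 libraries in each, 6 of the 24 in the series, over all genes of the deposited table. The comparison and the gene lists used below were chosen with earlier results of these data known. Retinal organoids are aggregates of embryonic stem cells that form optic cup tissue in culture. All samples came from mouse embryonic stem cells, either a line derived from Nrl-GFP transgenic mice, in which a fluorescent protein marks rods, or the R1 line, and the labels do not say which sample came from which line. In the RWB group, optic cups were cut away from the rest of the organoid at D10 and kept in a turning vessel; in the SSCi group the organoids were never cut, so the non-retinal tissue stayed attached. Both media held N2 supplement, 1 mM taurine, 500 nM 9-cis retinal and IGF1, an insulin-like growth factor, at 100 ng/ml. Amino acids, fetal bovine serum (2%) and B27 supplement lacking vitamin A joined the medium on D18 for RWB but only on D26 for SSCi. Day of differentiation, dissection, rotation and the day of supplementation therefore differed together between the groups, as the stem cell line may have, and cannot be told apart here. SSCi at D25 (2 libraries), the same static culture before supplementation, is given beside the endpoints for reference; each comparison with it shares 3 libraries with the comparison of endpoints.

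Retinal neurons are born in a fixed order. Cones, horizontal, ganglion and amacrine cells come early, and rods, bipolar cells and Mueller glia come late. Photoreceptors then build an outer segment, a stack of membranes packed with an opsin and the proteins of phototransduction: the opsin activates a transducin, transducin activates a phosphodiesterase, and cyclic nucleotide-gated channels close. Rods and cones use different members of the same families. Crx and Otx2, homeobox transcription factors, drive photoreceptor genes of both types, and Nrl and Nr2e3 direct the rod fate. Rods pass their signal to ON bipolar cells, which read glutamate through the receptor Grm6.

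The promoters of 4 photoreceptor genes that differed between the endpoints are shown because they hold, or lack, the sequence TAATCC, the core of sites for Crx and Otx2. Each run is the 250 bases before the gene's start in RefSeq on GRCm38.p6, written 5′ to 3′ on the gene's own strand. Capitals mark TAATCC or its reverse complement GGATTA. Of the 6 photoreceptor genes with the smallest p in the comparison that have an entry, Rbp3, Gucy2e and Gnat2 held 1 match each and Slc24a1, Rdh8 and Impg2 held none; the 3 with a match and Slc24a1, with the smallest p, are printed.
Rbp3 (chr14:33953753-33954002, plus strand), lower in RWB: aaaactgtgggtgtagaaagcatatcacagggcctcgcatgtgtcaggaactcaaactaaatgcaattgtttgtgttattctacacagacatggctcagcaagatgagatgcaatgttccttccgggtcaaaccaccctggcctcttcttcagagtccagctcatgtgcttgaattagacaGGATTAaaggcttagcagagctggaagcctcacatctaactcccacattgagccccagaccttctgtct
Gucy2e (chr11:69237023-69237272, minus strand), lower in RWB: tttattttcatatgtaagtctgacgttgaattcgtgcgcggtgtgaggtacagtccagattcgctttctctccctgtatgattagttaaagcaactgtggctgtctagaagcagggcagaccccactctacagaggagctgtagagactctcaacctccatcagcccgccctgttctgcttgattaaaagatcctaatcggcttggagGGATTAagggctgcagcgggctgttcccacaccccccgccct
Gnat2 (chr3:108092816-108093065, plus strand), higher in RWB: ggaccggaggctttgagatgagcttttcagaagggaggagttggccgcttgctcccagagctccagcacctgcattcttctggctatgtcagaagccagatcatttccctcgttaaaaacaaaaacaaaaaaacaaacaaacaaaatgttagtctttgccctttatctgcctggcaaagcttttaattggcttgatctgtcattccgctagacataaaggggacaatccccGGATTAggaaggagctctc
Slc24a1 (chr9:64951621-64951870, minus strand), lower in RWB: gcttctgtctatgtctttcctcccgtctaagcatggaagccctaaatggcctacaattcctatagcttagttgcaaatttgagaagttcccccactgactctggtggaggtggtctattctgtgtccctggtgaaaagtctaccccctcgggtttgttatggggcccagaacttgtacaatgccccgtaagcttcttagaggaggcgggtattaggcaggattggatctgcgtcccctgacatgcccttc
The match began 69 bases before the start in Rbp3, 42 in Gucy2e and 19 in Gnat2, each time as GGATTA. The RefSeq start of Gnat2 lies downstream of the start of the GENCODE gene given below, so its run falls inside that gene. The last bases of the Gucy2e run also fall inside its GENCODE gene, which starts at chr11:69237036 on the minus strand. The motif thus stood in promoters of genes that were lower and of 1 that was higher in the bioreactor. Over windows of 300 bases, 250 before and 50 after the start, 22 of 90 windows of genes on the photoreceptor lists (24.4%) held a match on either strand, and 67 of the 86 listed genes have a window. Among all 32851 windows the share was 7.06%, and among the 15555 windows of genes tested it was 5.97%. It was 8 of 22 for the rod list, 4 of 22 for the cone list, 6 of 28 for the bipolar list and 0 of 26 for the cell cycle list. A match is a run of letters and no measure of binding.

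Total estimated counts in the 6 libraries ranged from 13284708 to 17581061. RWB D25 replicate 1 stood apart from the others. Mitochondrially encoded genes took 13.1% of its counts, against 5.02% and 3.95% in the other RWB libraries and 3.98% to 4.40% in SSCi D32. In the rest of the series, libraries numbered 1 of RWB D22 and of dissected static culture (SSCd) at D18 and D22 also held more of these counts, 8.26% to 10.2%, than their replicates 2 and 3, at 2.63% to 5.21%. Over genes averaging at least 100 counts, RWB D25 replicate 1 differed from RWB D25 replicates 2 and 3 by 192 and 273 times the variance of counting alone, while those 2 differed by 46.6 times and the 3 SSCi D32 pairs by 10.3 to 17.3 times. Its genes with the longest transcripts read low: with genes cut into 4 bins by transcript length, the median log2 difference from the other RWB libraries was -0.26 in the longest bin and 0.07 in the shortest. Transcript length moved with the comparison as well. The median log2 fold change ran from 0.14 in the shortest bin to -0.12 in the longest, and without replicate 1 from 0.09 to -0.09. The part of length in the results below was not tested.

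**Figure D1:**
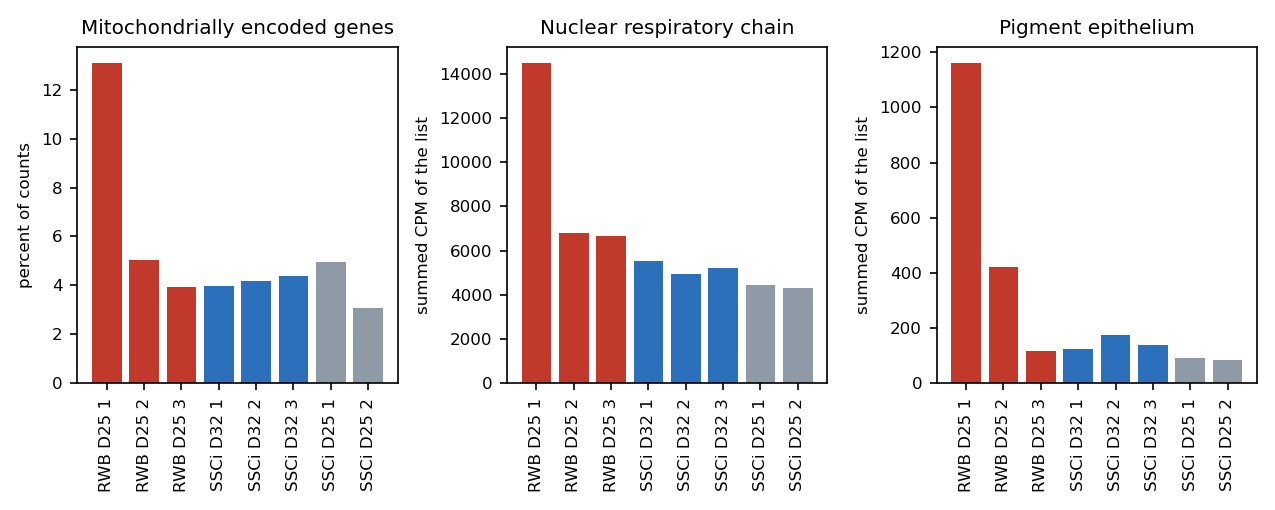
Percent of counts from mitochondrially encoded genes (left) and summed CPM (counts scaled to library size) of the nuclear respiratory chain (middle) and pigment epithelium (right) gene lists, 1 bar per library of RWB D25, SSCi D32 and SSCi D25. RWB D25 replicate 1 has the highest bar in each panel, at 13.1%, 14490 CPM and 1161 CPM.

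Of 16792 genes tested, 1651 (9.83%) differed between the endpoints at an edgeR adjusted p below 0.05. In RWB D25, 798 (4.75%) were higher and 853 (5.08%) lower, and the median log2 fold change over all genes was 0.03. Changes of at least 2-fold made up 403 of the higher and 611 of the lower calls. Without RWB replicate 1 the test called 681 genes, 234 higher and 447 lower; without SSCi D32 replicate 1, 2 or 3 it called 812, 822 and 645. A call was kept in every fit that left out 1 of the 6 libraries by 503 genes, 146 higher and 357 lower. The genes named below kept their call in all 6 such fits, with a log2 fold change that moved by no more than the size of a 1.5-fold change, unless stated otherwise. List counts of up to 4 moved by at most 2 genes in these fits. Larger counts are given with the libraries that moved them by over 1.5 times. Every list count is to be read beside the 4.75% higher and 5.08% lower of all genes tested. Log2 fold changes are RWB D25 over SSCi D32, with the standard error (SE), and CPM are scaled by TMM and not divided by gene length, so they compare libraries and not genes. The labels speak of biological replicates. Each p-value sets a difference against the spread between such repeats, estimated over all 24 libraries in 9 groups and not in these 2 groups alone.

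**Figure D2:**
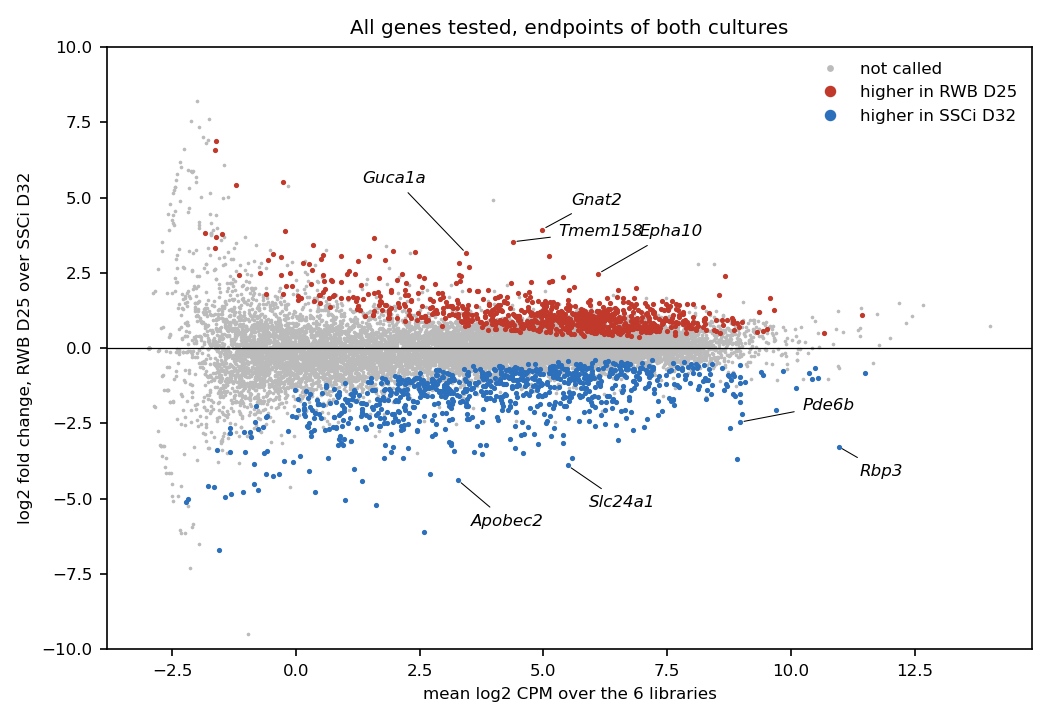
Log2 fold change of RWB D25 over SSCi D32 against mean log2 CPM over the 6 libraries, 1 point per gene tested. The 798 red points were higher and the 853 blue points lower in RWB D25; Gnat2 (3.94) and Slc24a1 (-3.90) are among the labelled genes.

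The rod genes were the group most often lower in the bioreactor among the photoreceptor lists. Of 30 rod genes tested, 15 were lower and 1 was higher, against 5.08% and 4.75% of all genes, and the list median was -1.45 against 0.03. The count of lower genes was 12 without RWB replicate 1 and 11 to 13 in the 6 fits that left out 1 library. The summed level of the list was 8603 to 14530 CPM in RWB D25 and 18350 to 22890 CPM in SSCi D32. In bulk tissue, fewer rods and less RNA per rod cannot be told apart.

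Slc24a1 (chr9:64922861-64951607), the exchanger that carries calcium out of the rod outer segment, read 8.09, 12.7 and 14.5 CPM in RWB D25. In SSCi D32 it read 201, 142 and 187 CPM, a log2 difference of -3.90 (SE 0.41, edgeR adjusted p = 1.63e-05). The groups did not overlap, as in 5515 (32.8%) of all genes tested. All RWB libraries were nonetheless above SSCi D25, at 2.25 and 2.69 CPM (2.25 for RWB D25 over SSCi D25, edgeR adjusted p = 0.00648).

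Pde6b, the beta subunit of rod phosphodiesterase, was at 168, 279 and 202 CPM in RWB D25 and at 1301, 1080 and 1194 CPM in SSCi D32 (-2.46, SE 0.42, edgeR adjusted p = 0.00122). Gucy2e, a guanylate cyclase that restores cyclic GMP after light, was at 31.3, 46.2 and 87.9 CPM against 358, 293 and 361 CPM (-2.61, SE 0.32, edgeR adjusted p = 5.34e-05). Unlike Slc24a1, Gucy2e in the bioreactor was also below SSCi D25, at 149 and 163 CPM (-1.49, edgeR adjusted p = 0.00897). Reep6, a membrane protein of rods, read 14.8, 29.2 and 39.0 CPM against 185, 150 and 168 CPM (-2.60, SE 0.42, edgeR adjusted p = 0.000716).

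Gnat1, the rod transducin alpha subunit, was lower with less certainty. It stood at 25.4, 45.8 and 37.7 CPM in RWB D25 and at 142, 88.9 and 110 CPM in SSCi D32 (-1.64, SE 0.48, edgeR adjusted p = 0.0353). Its call was lost without RWB replicate 1 (-1.47, 0.159) or 3 (-1.67, 0.0545) and without SSCi D32 replicate 1 (-1.45, 0.117), 2 (-1.79, 0.0569) or 3 (-1.67, 0.0898), each with its edgeR adjusted p. Against SSCi D25, at 4.51 and 4.12 CPM, Gnat1 was higher in the bioreactor (3.07, edgeR adjusted p = 0.00431). The single rod-list gene that was higher at the RWB endpoint was Guca1a, a guanylate cyclase activator used by rods and cones and counted on both lists.

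Of the transcription factors that direct photoreceptor genes, Crx was nearly level, at 1637, 1608 and 1408 CPM in RWB D25 and 1580, 1393 and 1532 CPM in SSCi D32 (0.05, SE 0.26, edgeR adjusted p = 0.941), with a value of -0.03 without RWB replicate 1. Nrl read 812, 471 and 500 CPM against 1287, 1161 and 1293 CPM, with no overlap, and was not called (-1.07, SE 0.41, edgeR adjusted p = 0.105). Nr2e3 read 302, 315 and 307 CPM against 786, 671 and 764 CPM and was not called either (-1.26, SE 0.41, edgeR adjusted p = 0.0583). Of 18 photoreceptor transcription factors 3 were higher and 5 lower; lower calls fell to 2 without RWB replicate 1, 3 without SSCi D32 replicate 1 and 2 without SSCi D32 replicate 3. Prdm1, a repressor of the bipolar fate in newborn photoreceptors, was at 177, 250 and 188 CPM in RWB D25 and 65.9, 47.5 and 81.4 CPM in SSCi D32 (1.66, SE 0.24, edgeR adjusted p = 0.000296). Its bioreactor level was near that of SSCi D25, at 265 and 247 CPM. Esrrb, a nuclear receptor of mature rods, was at 1.51, 0.997 and 2.03 CPM against 20.0, 10.6 and 14.9 CPM (-3.31, SE 0.63, edgeR adjusted p = 0.00274). Onecut1, a factor of horizontal cells and early cone precursors, was lower as well (-1.60, SE 0.30, edgeR adjusted p = 0.00219).

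**Figure D3:**
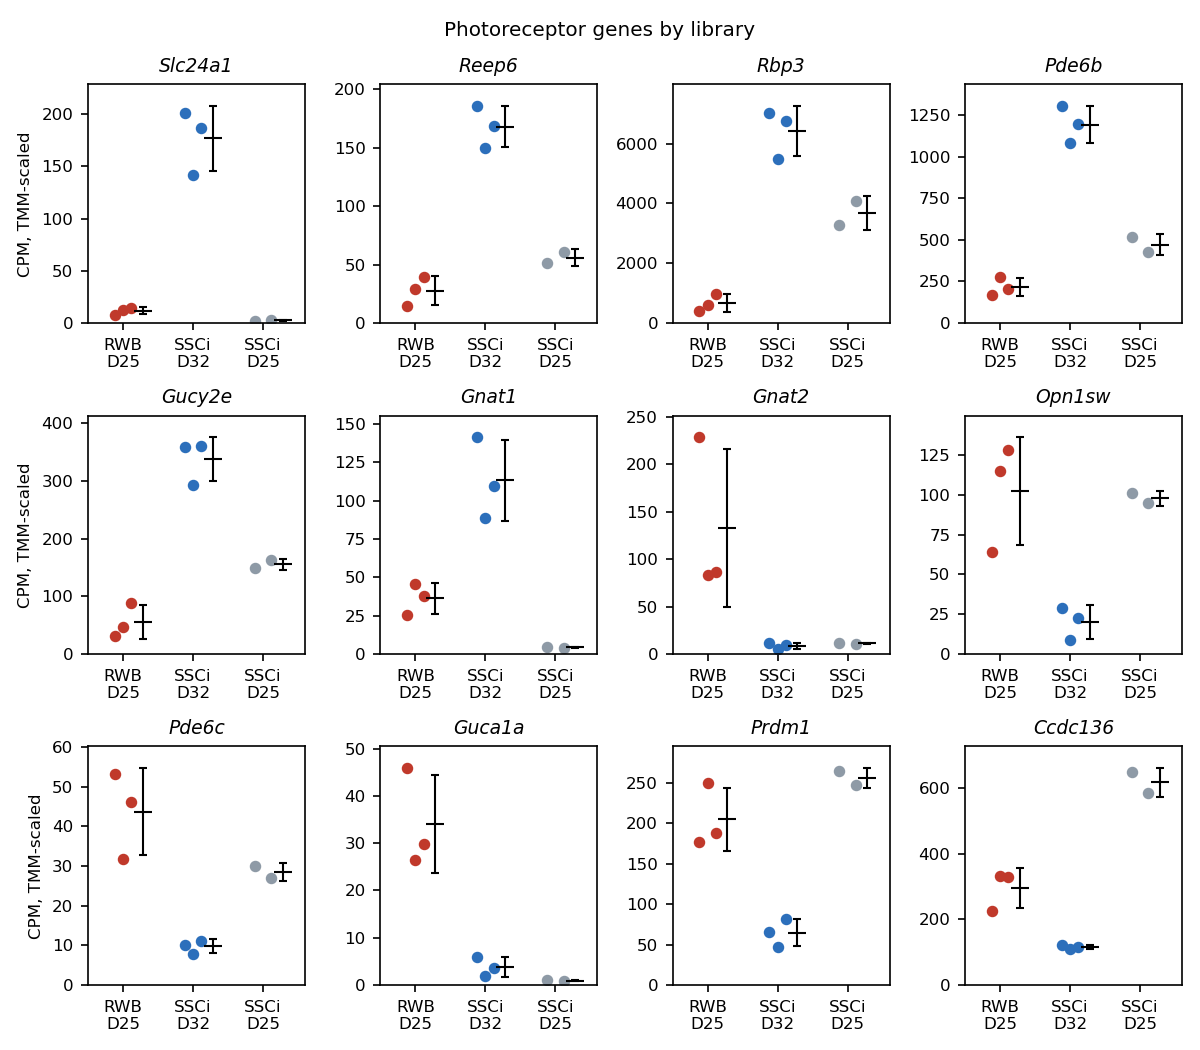
TMM-scaled CPM of 12 photoreceptor genes in each library of RWB D25, SSCi D32 and SSCi D25 (points), with the mean and SD to the right of each group. Slc24a1, Reep6, Rbp3, Pde6b and Gucy2e are lower, and Gnat2, Opn1sw and Pde6c higher, in all RWB D25 libraries than in all SSCi D32 libraries.

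Genes of the outer segment and the connecting cilium, the stalk that joins it to the cell body, were lower in 10 of 29 tested and higher in none, with a median of -0.70. Rbp3 (chr14:33954003-33964216), the retinoid carrier secreted between photoreceptors and pigment epithelium, was at 414, 595 and 985 CPM in RWB D25 and at 7035, 5487 and 6767 CPM in SSCi D32. The log2 difference was -3.27 (SE 0.38, edgeR adjusted p = 3.21e-05). Every RWB library was also under SSCi D25, at 3271 and 4071 CPM (-2.47, edgeR adjusted p = 0.000668). Impg2, a proteoglycan of the matrix around outer segments, followed the same order: 230, 248 and 255 CPM in RWB D25, 619 and 447 CPM in SSCi D25, and 1248, 969 and 1104 CPM in SSCi D32 (-2.18 between endpoints, SE 0.25, edgeR adjusted p = 3.18e-05). Rdh8, the outer segment enzyme that reduces all-trans retinal, read 9.20, 19.2 and 17.2 CPM against 109, 81.2 and 96.5 CPM (-2.65, SE 0.30, edgeR adjusted p = 3e-05). Abca4, the transporter that clears retinal adducts from disc membranes, read 147, 179 and 200 CPM against 573, 517 and 608 CPM (-1.69, SE 0.28, edgeR adjusted p = 0.00111).

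Cone genes went the other way. Of 19 tested, 10 were higher in RWB D25 and 2, Kcne2 (-1.58) and Gnb5 (-0.89), lower, with a list median of 1.41. Kcne2 was not called without RWB replicate 1 or 3 or any 1 SSCi D32 library (edgeR adjusted p from 0.0537 to 0.0931), and Gnb5 not without RWB replicate 2 or SSCi D32 replicate 1 or 3 (from 0.0607 to 0.0655). Leaving out 1 library gave 7 to 10 higher genes, 8 of them without RWB replicate 1. The calls covered most steps of cone phototransduction: the opsin Opn1sw, the transducin subunits Gnat2 and Gngt2 (2.39), the phosphodiesterase subunits Pde6c and Pde6h (1.91), the channel subunits Cnga3 (1.52) and Cngb3 (3.06), and the arrestin Arr3. Cnga3 lost its call without RWB replicate 1 (1.13, edgeR adjusted p = 0.185), SSCi D32 replicate 1 (1.59, 0.0738) or SSCi D32 replicate 2 (1.22, 0.128). Pde6h kept its call without RWB replicate 2 and lost it without any other 1 of the 6 libraries (1.57 to 2.20, edgeR adjusted p from 0.0709 to 0.164). Gngt2 stood at 1.61 without RWB replicate 1 and Cngb3 at 2.46.

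Gnat2 (chr3:108092789-108101432), the cone transducin alpha subunit, read 228, 83.3 and 86.7 CPM in RWB D25. It read 11.5, 5.31 and 9.10 CPM in SSCi D32 and 11.7 and 10.5 CPM in SSCi D25, so all bioreactor libraries were above all static ones. The log2 difference between endpoints was 3.94 (SE 0.49, edgeR adjusted p = 6.68e-05), and 3.26 without RWB replicate 1, the highest library (edgeR adjusted p = 0.000358). Guca1a (chr17:47394558-47400584) was likewise above all static libraries, at 45.8, 26.4 and 29.8 CPM against 6.01, 1.82 and 3.64 CPM (3.15, SE 0.54, edgeR adjusted p = 0.00129), with SSCi D25 at 0.986 and 0.812 CPM.

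Opn1sw (chr6:29376671-29388468), the short-wavelength cone opsin, was at 64.2, 115 and 128 CPM in RWB D25 and at 29.0, 8.60 and 22.8 CPM in SSCi D32 (2.35, SE 0.49, edgeR adjusted p = 0.00523). Here the bioreactor level was close to SSCi D25, at 101 and 94.7 CPM (0.06 for RWB D25 over SSCi D25, edgeR adjusted p = 0.952), and SSCi D32 was below SSCi D25 (-2.28, edgeR adjusted p = 0.00805). Pde6c read 53.3, 31.7 and 46.1 CPM against 10.2, 7.83 and 11.2 CPM (2.16, SE 0.49, edgeR adjusted p = 0.00872). Ccdc136, a coiled-coil protein gene beside Opn1sw, was at 227, 332 and 330 CPM against 123, 109 and 115 CPM (1.35, SE 0.17, edgeR adjusted p = 7.19e-05), and higher still in SSCi D25, at 648 and 587 CPM. The genes lie next to each other on opposite strands, and their GENCODE positions do not overlap (Ccdc136 at chr6:29396309-29426994). Arr3, cone arrestin, read 10.4, 21.6 and 19.9 CPM against 9.49, 4.54 and 5.46 CPM (1.41, SE 0.37, edgeR adjusted p = 0.0216). Its call was lost without RWB replicate 2 (1.22, edgeR adjusted p = 0.0677), SSCi D32 replicate 2 (1.21, edgeR adjusted p = 0.105) or SSCi D32 replicate 3 (1.30, edgeR adjusted p = 0.104). Opn1mw, the middle-wavelength opsin, was near the floor, at 0.159, 0.125 and 3.31 CPM against 1.96, 3.50 and 1.46 CPM, and was not called (-0.90, SE 1.13, edgeR adjusted p = 0.673).

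At the photoreceptor ribbon synapse 7 of 28 genes were lower and 2 higher. Lower calls were 5 without RWB replicates 1 or 2 or SSCi D32 replicates 1 or 2, 3 without SSCi D32 replicate 3, and 10 without RWB replicate 3. Cacna2d4, the calcium channel subunit of rod terminals, was at 84.6, 71.3 and 89.9 CPM in RWB D25 against 372, 310 and 370 CPM in SSCi D32 (-2.10, SE 0.21, edgeR adjusted p = 1.62e-05). Lrit2, a leucine-rich repeat protein, read 19.6, 24.7 and 20.8 CPM against 85.0, 72.2 and 92.7 CPM (-1.94, SE 0.22, edgeR adjusted p = 3e-05). Rims1, a scaffold of the vesicle release site, was instead higher, at 96.1, 56.6 and 84.7 CPM against 13.5, 21.7 and 16.0 CPM (2.21, SE 0.30, edgeR adjusted p = 0.000154).

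Bipolar cell genes were lower nearly as often as rod genes, 14 of 29, with 1 (Lhx4, 1.14) higher and a median of -1.32. Between 12 and 14 were lower in each fit that left out 1 library, and Lhx4 was not called without RWB replicate 1 or any 1 SSCi D32 library (edgeR adjusted p from 0.082 to 0.196). Grm6 (chr11:50850685-50866208), the glutamate receptor of ON bipolar cells, was at 2.30, 8.66 and 11.8 CPM in RWB D25. In SSCi D32 it was at 61.8, 62.7 and 63.8 CPM, a log2 difference of -3.04 (SE 0.44, edgeR adjusted p = 0.000329). SSCi D25 was near the floor, at 0.634 and 0.500 CPM, and the bioreactor libraries were above it (3.74, edgeR adjusted p = 0.000926).

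Scgn, a calcium-binding protein of cone bipolar cells, held the same order, with 3.41, 2.18 and 2.94 CPM in RWB D25, 25.9, 24.5 and 28.8 CPM in SSCi D32 and 0.916 and 0.875 CPM in SSCi D25 (-3.21 between endpoints, SE 0.35, edgeR adjusted p = 2.54e-05). Rgs11, which shuts off the G protein behind Grm6, differed from both. It read 4.12, 17.4 and 20.7 CPM in RWB D25 and 110, 105 and 109 CPM in SSCi D32 (-2.93, SE 0.46, edgeR adjusted p = 0.000634), and it was already at 99.1 and 130 CPM in SSCi D25. Vsx1, a factor of cone bipolar subtypes, was low in RWB D25, at 0.238, 0.249 and 1.66 CPM against 6.52, 5.59 and 5.90 CPM (-3.01, SE 0.55, edgeR adjusted p = 0.0022), and stood at -4.58 without RWB replicate 3. Prkca, the protein kinase C of rod bipolar cells, was not called, at 168, 142 and 147 CPM against 124, 120 and 112 CPM (0.36, SE 0.17, edgeR adjusted p = 0.189).

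**Figure D4:**
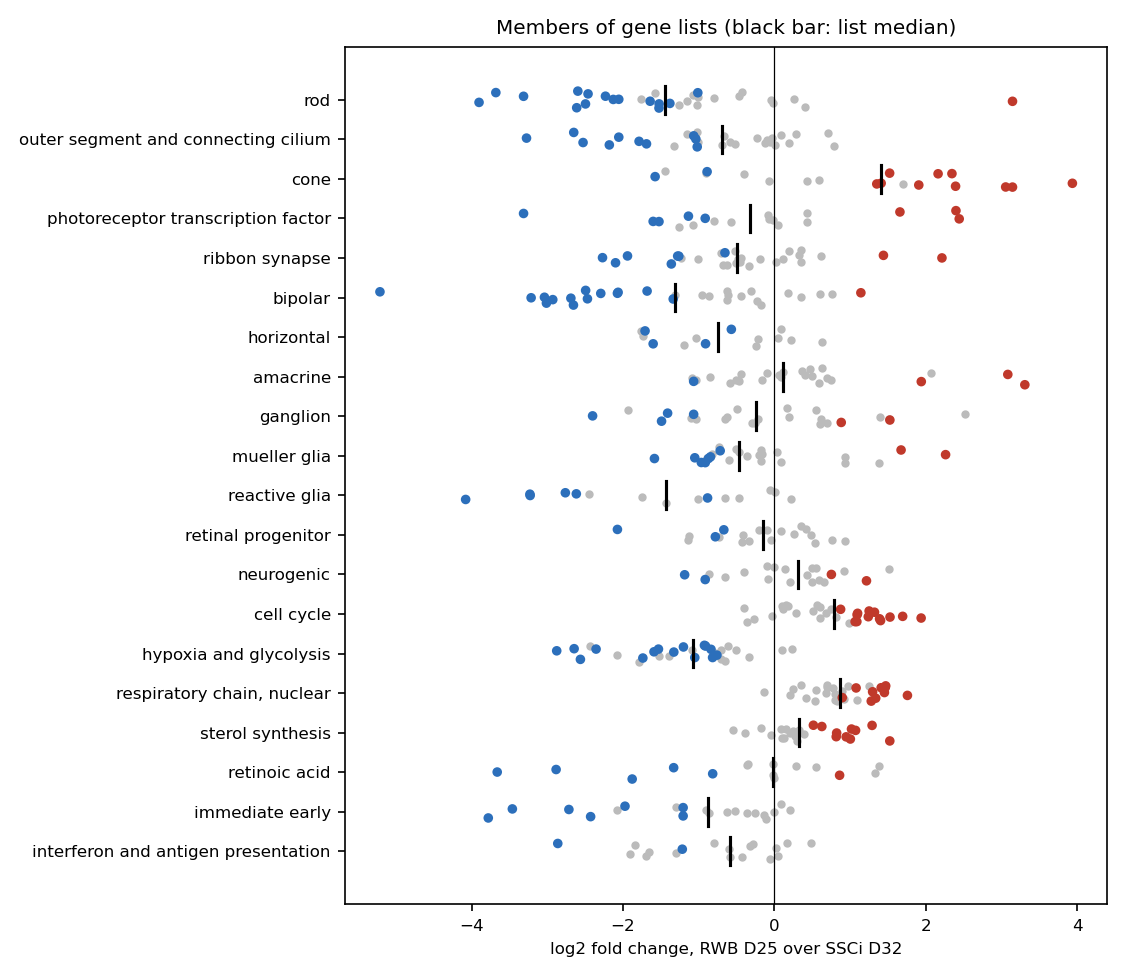
Log2 fold change of RWB D25 over SSCi D32 for each tested member of 20 gene lists (points; red called higher, blue called lower, grey not called) with the list median as a black bar. The rod (-1.45) and bipolar (-1.32) medians lie left of 0 and the cone median (1.41) right of it; vertical scatter within a row has no meaning.

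Among the other neurons, 4 of 14 horizontal cell genes were lower and none higher. Prox1, a homeobox factor of horizontal cells that is also on the lens list, was at 18.1, 38.3 and 45.5 CPM against 110, 109 and 114 CPM (-1.71, SE 0.29, edgeR adjusted p = 0.00111). Horizontal lower calls dropped to 2 without SSCi D32 replicate 1. Of 25 amacrine genes 3 were higher and 1 lower, so 16% were called, against 9.83% of all genes tested. Calb2, calretinin, was at 256, 112 and 190 CPM against 43.8, 66.5 and 35.02 CPM (1.94, SE 0.29, edgeR adjusted p = 0.00043), and at 56.3 and 64.1 CPM in SSCi D25. Tfap2a (0.47, edgeR adjusted p = 0.449), Gad1 (0.11, edgeR adjusted p = 0.861) and the horizontal cell marker Calb1 (0.22, edgeR adjusted p = 0.719) were not called, and the last 2 changed sign when some single libraries were left out. Ganglion cell genes summed to 548 to 620 CPM in RWB D25 and 548 to 651 CPM in SSCi D32, with a median of -0.24. Of 24 tested, 2 were higher and 4 lower (25% called). The lower ones included the neurofilament subunits Nefl, at 38.2, 33.6 and 30.2 CPM against 90.3, 101 and 95.4 CPM (-1.49, SE 0.23, edgeR adjusted p = 0.000503), and Nefm (-2.40, SE 0.51, edgeR adjusted p = 0.00562). The ganglion cell factor Pou4f2 was below 1 CPM in all 6 libraries.

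Mueller glia genes were lower in 7 and higher in 2 of 25, with a median of -0.47. Their summed levels overlapped, at 3139 to 4448 CPM in RWB D25 and 3416 to 3920 CPM in SSCi D32. Lower calls were 3 without RWB replicate 1, SSCi D32 replicate 1 or SSCi D32 replicate 3, and higher calls 0 without any of these or SSCi D32 replicate 2. Dkk3, a secreted protein of Mueller glia, was at 208, 252 and 271 CPM in RWB D25 and 442, 434 and 462 CPM in SSCi D32 (-0.87, SE 0.17, edgeR adjusted p = 0.00341). Rlbp1, the retinaldehyde carrier of these cells, read 89.1, 87.1 and 85.5 CPM against 174, 139 and 180 CPM (-0.91, SE 0.25, edgeR adjusted p = 0.026). Leaving out RWB replicate 1 or 2 raised its edgeR adjusted p to 0.0767 or 0.0575, and leaving out SSCi D32 replicate 1 or 3 to 0.0804 or 0.103, at log2 fold changes of -0.84 to -0.96. Glul, glutamine synthetase, was not called (-0.17, edgeR adjusted p = 0.597). Of 15 genes of reactive glia, the state that follows injury, 6 were lower, 3 without RWB replicate 1 and 4 without any 1 SSCi D32 library. The complement component C3 was at 0.555, 1.31 and 1.44 CPM against 8.67, 8.88 and 14.1 CPM (-3.23, SE 0.63, edgeR adjusted p = 0.00344). Gfap, the intermediate filament of reactive glia, varied within each group, from 4.30 to 83.4 CPM in RWB D25 and 20.0 to 74.5 CPM in SSCi D32.

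Cell cycle genes were higher in 13 of 30 and lower in none, with a median of 0.78. Leaving out RWB replicate 1 or 2 reduced the count to 4 or 7, and leaving out SSCi D32 replicate 2 or 3 reduced it to 3. Ccnb1, cyclin B, was at 22.0, 28.7 and 16.1 CPM in RWB D25 and at 6.08, 5.31 and 5.97 CPM in SSCi D32 (1.94, SE 0.32, edgeR adjusted p = 0.000852). SSCi D25 was above both, at 46.8 and 49.3 CPM. Ube2c, a ubiquitin-conjugating enzyme of mitotic exit, held the same order, with 7.85, 8.10 and 6.25 CPM, then 3.29, 2.66 and 3.35 CPM at D32 and 17.5 and 19.1 CPM in SSCi D25 (1.25 between endpoints, SE 0.25, edgeR adjusted p = 0.00338).

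Mki67, the proliferation marker, read 30.8, 83.6 and 44.3 CPM in RWB D25 and 26.1, 19.7 and 21.3 CPM in SSCi D32 (1.24, SE 0.38, edgeR adjusted p = 0.0461). Its call was lost without RWB replicate 2, the highest library (0.75, edgeR adjusted p = 0.223), and without SSCi D32 replicate 1 (1.37, edgeR adjusted p = 0.0875), 2 (1.16, 0.147) or 3 (1.21, 0.144). Of 20 retinal progenitor genes none was higher and 3 were lower at the endpoint, and of 20 neurogenic genes 2 were higher and 2 lower. In these lists 15% and 20% were called, against 9.83% of all genes tested. The neurogenic factor Atoh7 (1.51, edgeR adjusted p = 0.0871) and the progenitor growth factor Fgf15 (0.48, edgeR adjusted p = 0.625) were not called.

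Hypoxia and glycolysis genes, many of them targets of hypoxia-inducible factor, were lower in 15 of 30 and higher in none (median -1.07). Leaving out RWB replicate 1 or 3 reduced the count to 7 or 9, and leaving out SSCi D32 replicate 1, 2 or 3 reduced it to 8, 9 or 8. Egln3, an oxygen-sensing prolyl hydroxylase, was at 7.22, 24.04 and 18.0 CPM in RWB D25 and 125, 119 and 119 CPM in SSCi D32 (-2.88, SE 0.50, edgeR adjusted p = 0.00132), with SSCi D25 at 28.5 and 36.4 CPM. Aldoc, an aldolase, was at 47.9, 49.5 and 88.6 CPM against 292, 325 and 336 CPM (-2.35, SE 0.33, edgeR adjusted p = 0.000225). Gpi1, which catalyses the step after hexokinase, read 447, 953 and 721 CPM against 1650, 1802 and 1874 CPM (-1.33, SE 0.24, edgeR adjusted p = 0.00217). Egln1 (-1.74, SE 0.30, edgeR adjusted p = 0.00139) was lower too.

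Pdk1, which diverts pyruvate from mitochondria, ranged from 41.8 to 157 CPM in RWB D25 against 171 to 220 CPM in SSCi D32 (-1.20, SE 0.36, edgeR adjusted p = 0.0398). Without RWB replicate 2, its highest library, the value was -2.0 (edgeR adjusted p = 0.000521), and without any other 1 of the 6 libraries it was -0.91 to -1.29 with an edgeR adjusted p of 0.0687 to 0.175. Ldha, lactate dehydrogenase, was not called, at 4158, 3926 and 2903 CPM against 3438, 3302 and 3471 CPM (0.11, edgeR adjusted p = 0.861); it was chosen after its values were seen.

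Nuclear genes of the respiratory chain were higher in 10 of 30, with a median of 0.86 and none lower. None of the 30 was called without RWB replicate 1, or without SSCi D32 replicate 1, 2 or 3, and 14 and 18 were higher without RWB replicates 2 and 3. The list summed to 14490, 6803 and 6663 CPM in RWB D25, 5514, 4930 and 5200 CPM in SSCi D32 and 4433 and 4322 CPM in SSCi D25. None of 13 mitochondrially encoded respiratory genes was called by edgeR, DESeq2 or limma-voom (median 1.07), and 2 were higher at an unadjusted p under 0.05. These genes summed to 161100, 49590 and 37100 CPM in RWB D25 and 38640, 39290 and 42570 CPM in SSCi D32. RWB replicate 3 was thus below every SSCi D32 library.

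Sterol synthesis genes were higher in 10 of 25 and lower in none (median 0.32). There were 5 without RWB replicate 1, 6 without SSCi D32 replicate 1, and 5 without SSCi D32 replicate 2 or 3. Hmgcs1, which makes the precursor HMG-CoA, was at 549, 397 and 362 CPM in RWB D25, at 217, 220 and 215 CPM in SSCi D32 (1.00, SE 0.18, edgeR adjusted p = 0.00216) and at 469 and 380 CPM in SSCi D25. Fdft1, squalene synthase, read 330, 158 and 197 CPM against 95.6, 89.4 and 95.1 CPM (1.29, SE 0.22, edgeR adjusted p = 0.0012). Nsdhl (1.02, SE 0.20, edgeR adjusted p = 0.00338) and Idi1 (1.52, SE 0.30, edgeR adjusted p = 0.0036), enzymes of the same pathway, were higher as well.

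Of 15 retinoic acid genes 5 were lower and 1 higher; lower calls were 3 without SSCi D32 replicate 1 or 3. Cyp26b1, the enzyme that degrades retinoic acid, was at 0.634, 1.12 and 1.98 CPM in RWB D25 and 14.5, 13.3 and 20.8 CPM in SSCi D32 (-3.66, SE 0.48, edgeR adjusted p = 0.000105). It was at 23.0 and 36.6 CPM in SSCi D25, so the bioreactor libraries were below both static groups. Dhrs3, which turns retinal back to retinol, read 7.06, 10.2 and 8.65 CPM against 66.5, 57.8 and 67.0 CPM (-2.88, SE 0.41, edgeR adjusted p = 0.000207).

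Tbx5, a factor of the dorsal retina, was at 2.86, 4.11 and 2.56 CPM in RWB D25 against 14.6, 13.4 and 16.2 CPM in SSCi D32 (-2.21, SE 0.41, edgeR adjusted p = 0.00219) and 16.8 and 23.8 CPM in SSCi D25. H2-K1 (chr17:33996017-34000347), a class I histocompatibility gene, read 4.84, 15.3 and 12.4 CPM against 73.5, 85.8 and 78.2 CPM (-2.86, SE 0.40, edgeR adjusted p = 0.000195), with SSCi D25 at 59.1 and 73.2 CPM. Only 2 of the 18 tested genes of its list, interferon and antigen presentation, were called, both lower (11.1%, against 9.83% of all genes tested). Class I genes have near-identical copies that share reads, so this value is uncertain. Of 20 immediate early genes 7 were lower, but 2 without RWB replicate 1, 4 without RWB replicate 3, and 2, 3 and 4 without SSCi D32 replicates 1, 2 and 3.

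**Figure D5:**
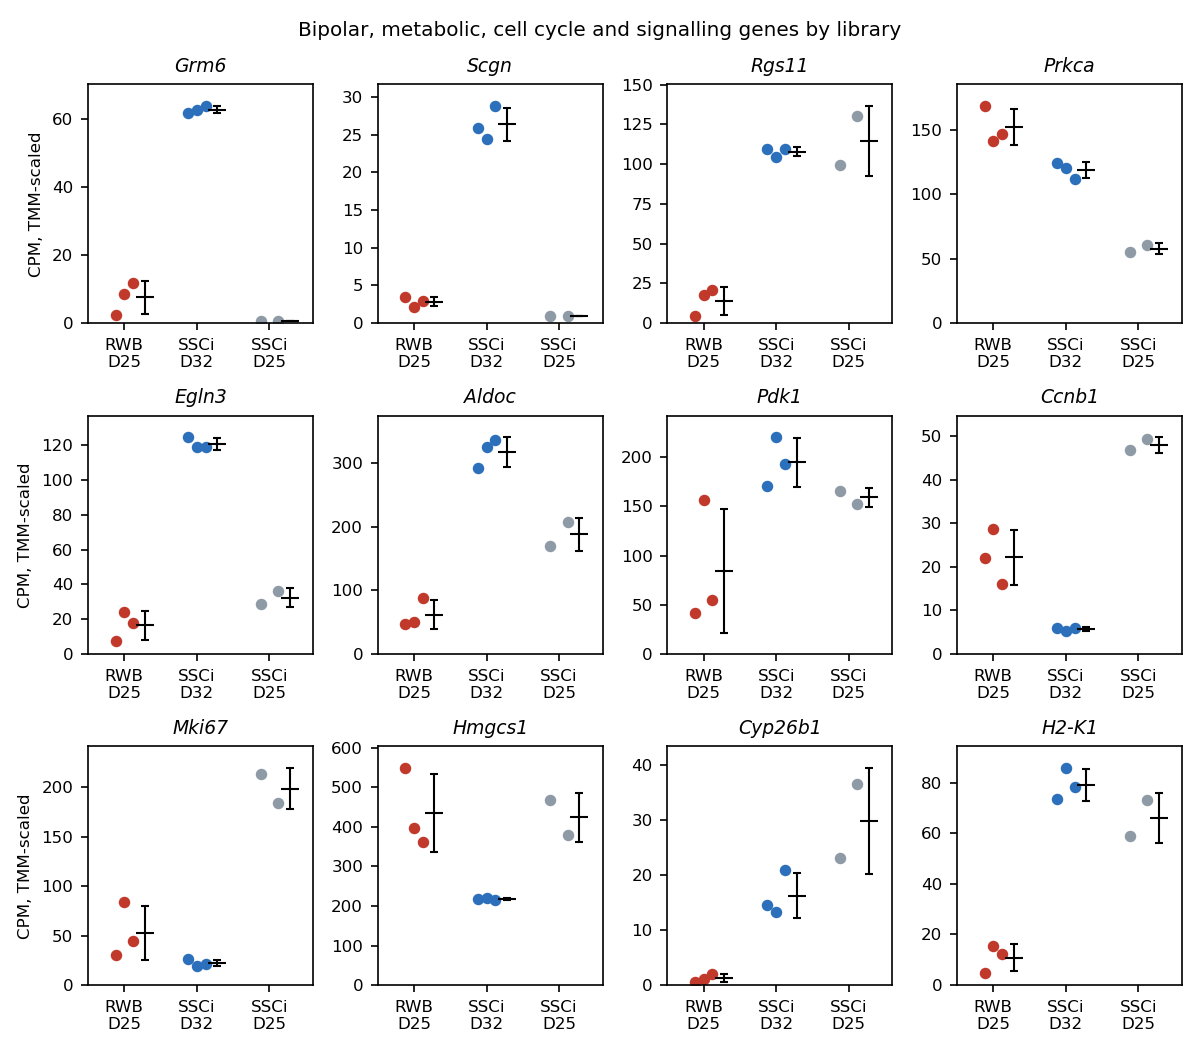
TMM-scaled CPM of 12 bipolar, glycolysis, cell cycle, sterol and signalling genes in each library of RWB D25, SSCi D32 and SSCi D25 (points), with the mean and SD to the right of each group. Grm6 and Scgn in RWB D25 lie between the static groups, Rgs11, Cyp26b1 and H2-K1 lie below both, and Ccnb1 lies between a high SSCi D25 and a low SSCi D32.

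The rule for the highest and lowest genes also limits movement to the size of a 1.5-fold change when 1 library is left out. Gnat2 (3.94) moved by more, to 3.26 without RWB replicate 1. Among all genes that met the rule, the highest log2 fold change belonged to Tmem158 (chr9:123259053-123260764), a membrane protein induced by Ras signalling. It was at 93.7, 56.9 and 65.2 CPM in RWB D25, 8.23, 5.66 and 4.73 CPM in SSCi D32 (3.53, SE 0.40, edgeR adjusted p = 3e-05) and 27.1 and 38.4 CPM in SSCi D25. Csrp3, a muscle LIM protein, followed after Guca1a, at 42.7, 17.9 and 21.5 CPM against 3.23, 5.66 and 2.62 CPM (2.83, SE 0.48, edgeR adjusted p = 0.00166). Epha10, an ephrin receptor, read 147, 155 and 183 CPM against 31.9, 26.2 and 29.6 CPM (2.47, SE 0.26, edgeR adjusted p = 1.86e-05). The beta-adrenergic receptor Adrb1 (2.41), the chromatin protein Hmgb2 (2.18) and the pantothenate kinase Pank1 (2.15) were also among the 12 highest.

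Besides the limit on movement, the rule sets a minimum level and asks for no overlap and a call in each fit that leaves out 1 library. Among genes that met it, the lowest was Apobec2, a member of the cytidine deaminase family. It read 1.11, 3.05 and 2.19 CPM in RWB D25 and 47.5, 38.0 and 49.3 CPM in SSCi D32 (-4.39, SE 0.44, edgeR adjusted p = 1.62e-05), with SSCi D25 at 26.1 and 27.2 CPM. Myof, a membrane repair protein, was at 8.09, 11.5 and 22.4 CPM against 171, 164 and 199 CPM (-3.66, SE 0.70, edgeR adjusted p = 0.00295). Vtn, the matrix protein vitronectin (-3.46), the urea transporter Slc14a1 (-3.42), the gut hormone receptor Glp2r (-3.22) and the keratin Krt18 (-3.21) were among the 12 lowest, with an edgeR adjusted p of at most 0.000621.

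Summed levels of markers of tissue outside the neural retina differed between the endpoints in some lists, and in several of them 1 gene made up most of the difference. Genes on the surface epithelium list summed to 28.5 to 31.3 CPM in RWB D25 and 72.8 to 83.4 CPM in SSCi D32. Of 20 listed genes 5 were at 0 in each group, and 3 of 12 tested were lower. The keratins Krt4, Krt5, Krt13 and Krt14 and the factor Trp63 were among the listed genes too low to be tested. Most of the difference between the sums was the keratin Krt18, at means of 4.32 and 39.7 CPM. The list median was 0.23, with Cdh1 (0.24) and Krt15 (0.54) among the genes not called. Epcam, an adhesion molecule of epithelia, was at 0.952, 1.56 and 0.534 CPM against 5.19, 7.62 and 7.06 CPM (-2.70, SE 0.41, edgeR adjusted p = 0.00047). Lens genes summed to 44.3 to 75.8 CPM against 149 to 164 CPM, with 8 and 7 of 24 listed genes at 0, and only Prox1 was called. Prox1, the horizontal cell factor described above, made up most of the difference, and the list median was 0.30. Endothelial genes summed to 48.5 to 155 CPM against 202 to 258 CPM, with 0 and 2 of 12 listed genes at 0. Most of each sum was the receptor Kdr, at means of 109 and 218 CPM, which was not called (-1.0, edgeR adjusted p = 0.0778), and the list median was -0.50. Of 9 tested, only the growth factor receptor Flt1 was called (-2.73, edgeR adjusted p = 0.0113), and not without RWB replicate 1 (-2.36, edgeR adjusted p = 0.0542). Cartilage and muscle genes summed to 51.8 to 138 CPM against 184 to 275 CPM, with 2 and 1 of 15 at 0, and 3 of 10 tested were lower. The collagen Col9a1, at means of 47.5 and 155 CPM, made up most of the difference, and the list median was -1.45. Pigment epithelium genes summed to 1161, 420 and 118 CPM in RWB D25 and 123, 174 and 137 CPM in SSCi D32, and none of 18 tested was called by edgeR or limma-voom. DESeq2 called 2 of them higher, and 4 were higher at an unadjusted edgeR p under 0.05. Most of that sum in the first 2 libraries was Ttr, transthyretin, at 970, 289 and 5.24 CPM in RWB D25 and 0.570, 41.2 and 0.218 CPM in SSCi D32. Mesenchyme genes summed to 83.2 to 101 CPM against 82.7 to 115 CPM, and microglia genes to 20.6 to 22.9 CPM against 20.5 to 25.7 CPM. The part of these tissues in the results above was not tested.

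The remaining lists had 0 to 22.2% of their genes called, against 9.83% of all genes tested. Among them were 1 higher and 2 lower of 15 choroid plexus genes, 4 lower of 18 ciliary margin genes, and 1 higher and 2 lower of 18 forebrain neuron genes. There were also 1 lower of 15 oligodendrocyte and astrocyte genes, 3 lower of 20 amino acid stress genes, 3 lower of 16 dorsal and ventral retina genes, 2 higher of 18 p53 and apoptosis genes, and 1 lower of 9 pluripotency genes, Esrrb. None of 9 hypothalamus and hindbrain genes was called by edgeR or limma-voom, DESeq2 called 1 higher, and 2 were higher at an unadjusted edgeR p under 0.05. Nupr1, a stress-induced chromatin regulator on the amino acid stress list, was at 2.22, 2.55 and 2.89 CPM in RWB D25 and 15.7, 19.4 and 20.5 CPM in SSCi D32 (-2.85, SE 0.33, edgeR adjusted p = 3.38e-05), with SSCi D25 at 10.0 and 13.1 CPM. Bax, a driver of apoptosis, was higher in the bioreactor, at 91.8, 96.9 and 90.4 CPM against 57.7, 51.3 and 48.2 CPM (0.83, SE 0.18, edgeR adjusted p = 0.00574). Tgfb2, a growth factor on the ciliary margin list, read 18.0, 33.1 and 32.8 CPM against 81.6, 71.6 and 79.7 CPM (-1.47, SE 0.26, edgeR adjusted p = 0.00161).

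At D25 itself, when the bioreactor culture had the supplements and static culture did not, RWB and SSCi differed in 1458 genes (8.68%), 605 (3.6%) higher and 853 (5.08%) lower in RWB. From D25 to D32 static culture changed in 1386 genes (8.25%), 624 (3.72%) higher and 762 (4.54%) lower at D32. The count at D25 was 624 without RWB replicate 1, 598 without SSCi D25 replicate 1 and 251 without SSCi D25 replicate 2. The static count was 671 and 481 without SSCi D25 replicates 1 and 2 and 879 to 910 without any 1 SSCi D32 library. In the bioreactor at D25, 6 of 30 rod genes were higher and 1 lower than in static culture (median 0.64), and in static culture 15 were higher and none lower at D32 than at D25 (median 1.63). For bipolar genes these counts were 6 and 1 of 29, then 13 and 0. For cone genes they were 6 and 1 of 19 at D25 (median 0.87), then 2 and 4 (median 0.28) from D25 to D32. Cell cycle genes were lower in 21 of 30 in the bioreactor at D25 and in 27 of 30 at static D32. Hypoxia and glycolysis genes were lower in 5 of 30 in the bioreactor at D25, and 3 were higher at static D32. The same libraries enter more than 1 of these comparisons, so the counts are not independent of those at the endpoints.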

How the data were processed

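Polyadenylated RNA was sequenced from stranded libraries, per the labels' protocols. In the submitters' processing notes stand GRCm38.p5, kallisto 0.42.5, limma 3.32.2 and edgeR 3.13.9, without their roles. The authors deposited estimated counts for 33846 genes, not normalized; how transcripts were combined and whether strand was used is not given in the sources used. Samples were grouped by titles.

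The estimated counts were rounded. Genes were filtered with filterByExpr, leaving 16792, and scaled by TMM. The main test was the robust quasi-likelihood F-test of edgeR 4.0.16 (R 4.3.3) on 9 group means over all 24 libraries, so that small groups share 1 estimate of the spread, with p-values adjusted by Benjamini and Hochberg's method across the 16792 genes and called below 0.05. SE is the log2 fold change divided by the root of F; log2 CPM use a prior count of 2. Positions come from GENCODE M21 (GRCm38). In simulated counts for this comparison over 16792 genes, the test recovered 30% of 100 2-fold and 89% of 100 4-fold changes, and 6 of 125 calls were false.

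The 37 gene lists, the panel of 26 genes and the comparison were chosen with earlier results of these data known. Named genes are the panel; the 12 highest and 12 lowest log2 fold changes among named genes called, at a log2 CPM averaging 3 or more, no overlap between groups, and a call and a change within 1.5-fold in all 6 fits that leave out 1 library; and up to 4 members per list and direction meeting the call and movement conditions. Some genes are not reported here. From the rest the text gives a selection; Ldha, Ttr and list members given only by a fold change were added after their values were seen. Of the panel, Rpe65 was not tested and Col1a2 was not called. Lists were described by counts and medians, with no set test. Alternatives were other size factors, no filter, DESeq2 1.42.0, limma-voom (limma 3.58.1), fewer libraries, a replicate block, a fold threshold and no mitochondrially encoded genes. Precision is limited by 3 libraries in each group and 13284708 to 17581061 counts per library.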

Additional observations from a re-analysis of the deposited data

How the results depend on the processing

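For RWB D25 against SSCi D32 the count of 1651 genes was 2492 with DESeq2, 2566 with a replicate block in all 24 libraries, 105 when a fold change of at least 2 was tested by glmTreat, 853 in a fit of only the 6 libraries, 511 with a replicate block in that fit and 371 without both libraries numbered 1. Leaving out 1 library gave 645 to 2363. With limma-voom the call split was 556 higher and 914 lower of 1470, against 798 and 853. For RWB D25 against SSCi D25 the count of 1458 was 2402 with DESeq2, 3348 with a replicate block, 90 in a fit of only those libraries and 251 to 2073 with 1 library left out. For SSCi D32 against SSCi D25 the count of 1386 was 3784 in a fit of only those libraries and 481 to 910 with 1 left out. Other size factors, no filter, limma-voom and leaving out mitochondrially encoded genes kept each of these counts within 1.5 times; the cause of the larger moves was not tested, beyond fewer libraries where some were left out. Same-numbered libraries of the endpoints did not deviate together (correlations of -0.10, -0.12 and -0.06), and the numbers were not taken as pairs. These correlations do not cover RWB D22 or SSCd at D18 and D22, which enter the same fit. There, libraries numbered 1 also held more mitochondrially encoded counts. The part of the number in the spread was not tested beyond the replicate block given above.

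Among the named genes, 1458 values under alternatives kept direction and call, 116 kept direction and lost the call, 9 gained it and 15 reversed. The reversals were all in genes not called. With 1 library left out, Crx ranged from -0.027 (without RWB replicate 1; -0.0051 without SSCi D32 replicate 2) to 0.11. Calb1 ranged from -0.19 (without RWB replicate 1, and -0.19 without both libraries numbered 1) to 0.46, and Gad1 from -0.22 (without RWB replicate 3; -0.022 and -0.0073 without SSCi D32 replicates 1 and 3) to 0.41. Pou4f2 ranged from -2.41 to 0.24 (without RWB replicate 3; 0.23 and 0.20 without RWB replicate 1 and SSCi D32 replicate 2), Fgf15 from -0.42 (without RWB replicate 2) to 0.97, with -0.026 by limma-voom, and Gfap from -1.34 to 0.78 (without SSCi D32 replicate 2; 0.12 and 0.48 without RWB replicates 1 and 2). Of simulated 2-fold changes 30% were recovered, so a gene not called may still differ by that much. The simulated counts gave 125 calls, against 1651 in the data, so the share recovered may differ in the data.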
